A study of Mus musculus with 6 samples.

Results

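The protein disulfide isomerase family was examined in mouse primary hepatocytes transduced with nuclear CREBH. The family was taken as 10 genes listed by name (P4hb, Pdia3, Pdia4, Pdia5, Pdia6, Txndc5, Txndc11, Tmx1, Erp44 and Prdx4), and the array row whose annotation gives exactly that gene was used for each. Each of 9 members had 1 such row, and these 9 are among 18820 genes measured this way. The only row for Pdia4 also carries the symbol of a microRNA, so Pdia4 has no expression value here. Hepatocytes from male wildtype C57BL/6J mice aged 8 to 10 weeks were plated in 60 mm dishes. They were given 100 viral particles per cell of an adenovirus that carries either green fluorescent protein (the control, called Ad-GFP) or the active, nuclear form of CREBH (called Ad-nuclear CREBH), and RNA was taken 24 h later. There were 3 dishes per virus, each on its own Affymetrix Mouse Gene 1.1 ST array, and nothing in the descriptions says that the dishes came from separate animals, so the p-values measure the spread between dishes. All 6 cultures carried a virus, and uninfected cells were not analysed here. Nuclear CREBH lacks the membrane anchor of the full-length protein, so its entry into the nucleus does not depend on cleavage.

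CREBH, encoded by Creb3l3, is a membrane-bound transcription factor of the endoplasmic reticulum (ER) in hepatocytes, and it is cut free in the Golgi when the cell is fasted or stressed. Secreted proteins such as albumin, clotting factors and apolipoproteins form their disulfide bonds in the ER. Protein disulfide isomerases carry thioredoxin-like domains that make, break and rearrange these bonds. Oxidases of the Ero1 type, and peroxiredoxin 4, supply the oxidising power. When unfolded proteins build up, the transcription factors ATF6 and XBP1 raise many of these enzymes through the ER stress element and the unfolded protein response (UPR) element in promoters.

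The promoters of the members are shown first because such elements could be looked for in them by their letters alone. RefSeq sequence (build GRCm38.p6) was found for all 10 members, in 14 windows of 250 bases upstream of a transcript start. Both strands were searched for the ER stress element (CCAAT, 9 bases of any kind, then CCACG), the ER stress element II (ATTGG, 1 base, CCACG), the UPR element core TGACGTGG, the cyclic AMP response element core TGACGT and CCACG alone. The UPR core overlaps the last 2 of these by construction, and both ER stress elements contain CCACG. Members were counted as genes, with a match in any window of the gene, so the shares beside them are of all 27025 genes with a window. The ER stress element stood upstream of 1 member, Pdia6, and of 0.13% of all genes (0.113% of all 32851 windows). The UPR core stood upstream of 2 members, Txndc5 in 1 of its 3 windows and Txndc11 in 1 of its 2, against 0.603% of all genes. The stretches around these matches follow on the strand of the gene, with the matched element in capitals.
Pdia6: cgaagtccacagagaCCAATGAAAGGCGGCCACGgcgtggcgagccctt
Txndc5: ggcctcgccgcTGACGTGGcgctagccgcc
Txndc11: tgaagtgtggcTGACGTGGagagtccgggt
The Pdia6 stretch lies at chr12:17266476-17266524 on the plus strand, with the element from base -98 to base -80 relative to the transcript start. The Txndc5 stretch lies at chr13:38528034-38528063 and the Txndc11 stretch at chr16:11134616-11134645, both on the minus strand. Their UPR cores begin at bases -138 and -102 relative to the respective start. The TGACGT core was found in the same 2 members and in 7.29% of all genes. CCACG alone was upstream of 7 members and of 31% of all genes. The ER stress element II was upstream of no member and of 0.037% of all genes. A match in letters is not a measurement of binding, and which protein, if any, occupied these stretches was not measured.

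Of the 9 members measured, 6 rose with nuclear CREBH, 1 fell and 2 did not pass the test. Pdia5 rose most, 4.92-fold, and P4hb, Txndc11, Txndc5, Prdx4 and Pdia3 rose between 1.25-fold and 1.85-fold. Pdia6 moved the other way and was 2.74-fold lower. Tmx1 and Erp44 differed by 0.03 and 0.02 on the log2 scale and did not pass. A gene was called at an adjusted p under 0.05 in the limma fit over all 18820 genes. By that rule 19.2% of all genes rose and 18.2% fell, so that a call in either direction was common. These shares stand for 3615 and 3427 genes, and after centring every array on its own median, which moved the median of all genes to 0.18, 4814 rose and 2852 fell while the members' calls stayed at 6 and 1. Calls were more common among brighter genes. Of the 4741 genes with a linear mean over 300 in a group, fitted alone, 1861 rose and 1468 fell. In that fit, which leaves out Txndc11, 5 members rose and 1 fell. The median log2 fold change was 0.48 over the members and 0.04 over all genes. The members were chosen with earlier results of these data known, and the median was -0.10 over the 15 other PDI-like ER genes described below. All values below are deposited log2 expression values, given in the order of replicates 1, 2 and 3, and differences are Ad-nuclear CREBH minus Ad-GFP.

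**Figure D1:**
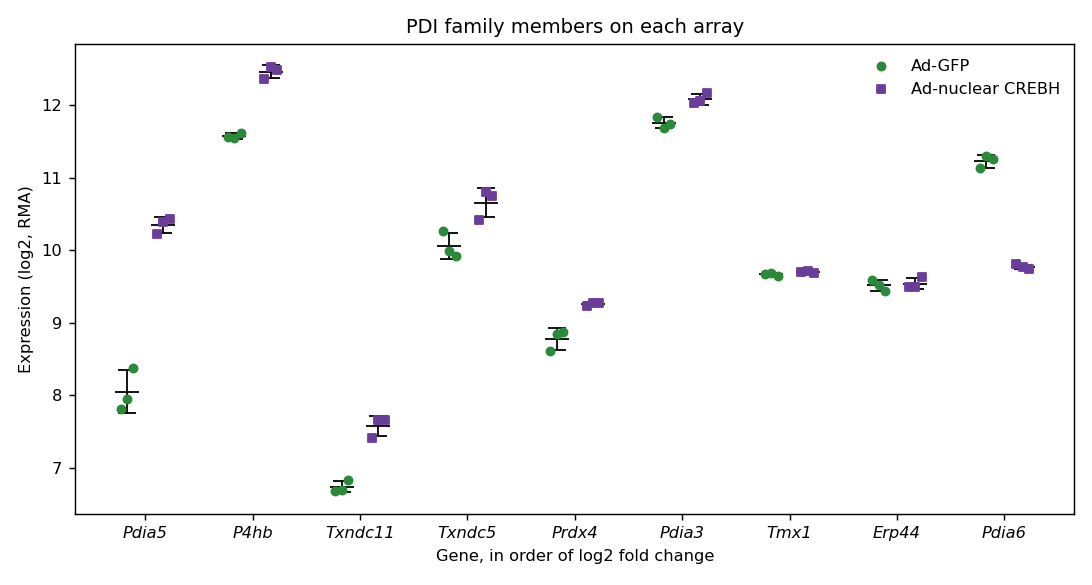
Deposited log2 expression (RMA) of the 9 measured members, with a circle for each of the 3 Ad-GFP arrays, a square for each of the 3 Ad-nuclear CREBH arrays, and bars for the mean and SD. The squares lie above the circles for 7 members, for Tmx1 by very little, below them for Pdia6, and among them for Erp44; levels of different genes come from different probes and are not to be compared.

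The targeted gene itself was measured first. Creb3l3 stood at 8.49, 8.02 and 8.21 in the Ad-GFP arrays and at 9.97, 10.46 and 10.59 in the Ad-nuclear CREBH arrays, so the labels and the gene go together on every array.

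P4hb encodes the founding member of the family, an abundant oxidase and isomerase that is also the beta subunit of collagen prolyl 4-hydroxylase and of the microsomal triglyceride transfer protein. It stood at 11.56, 11.55 and 11.62 in Ad-GFP and at 12.36, 12.53 and 12.49 in Ad-nuclear CREBH. The difference was 0.89 (SE 0.07, 95% interval 0.72 to 1.05), or 1.85-fold, with an adjusted p of 5.6e-05. The groups were far apart compared with their spread, with SDs of 0.04 and 0.09.

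Pdia3 encodes ERp57, which works with calnexin and calreticulin on glycoproteins. Its values were 11.84, 11.69 and 11.74 in Ad-GFP and 12.03, 12.05 and 12.17 in Ad-nuclear CREBH. The groups did not overlap, but the gap between the highest control and the lowest CREBH array was small. The difference was 0.33 (SE 0.08, 95% interval 0.15 to 0.50), or 1.25-fold, with an adjusted p of 0.0097. It was 0.10 with an adjusted p of 0.362 after cyclic loess normalization, and 0.28 with an adjusted p of 0.0506 without Ad-nuclear CREBH replicate 3.

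Pdia5 encodes PDIR, a family member with several thioredoxin-like domains. It was at 7.82, 7.95 and 8.38 in the Ad-GFP arrays and at 10.23, 10.39 and 10.43 in the Ad-nuclear CREBH arrays. Even the highest control array lay well below the lowest CREBH array. The difference was 2.30 (SE 0.16, 95% interval 1.93 to 2.67), or 4.92-fold, with an adjusted p of 3.3e-05. A larger rise was seen for 389 of the 18820 genes (2.07%).

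Pdia6 encodes P5, an ER isomerase that associates with the chaperone BiP. It stood at 11.13, 11.30 and 11.26 in Ad-GFP and at 9.81, 9.77 and 9.75 in Ad-nuclear CREBH. The 3 CREBH arrays were close to each other (SD 0.03) and all lay below the controls. The difference was -1.46 (SE 0.09, 95% interval -1.66 to -1.25), 2.74-fold lower, with an adjusted p of 2.2e-05. Pdia6 is the member with the ER stress element printed above, and BiP (Hspa5), the chaperone it associates with, stood at 12.60 ± 0.14 and 12.79 ± 0.03 (SD, n = 3 each), with an adjusted p of 0.105 for the difference. In livers of mice that overexpress CREBH, the paper reports no genotype difference in ER stress genes, Pdia6, Erp44, BiP and Dnajc3 among them. Those genes were measured by PCR in whole liver on chow or a high-fat diet, not in cultures at 24 h.

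Txndc5 encodes ERp46, an efficient oxidase of substrate proteins. Its values were 10.27, 9.99 and 9.92 in Ad-GFP and 10.43, 10.80 and 10.76 in Ad-nuclear CREBH. The first array of each group stood apart from the other 2, high among the controls and low among the CREBH arrays, so that the groups nearly met. The difference was 0.60 (SE 0.14, 95% interval 0.28 to 0.92), or 1.52-fold, with an adjusted p of 0.0099, and after quantile normalization it was 0.41 with an adjusted p of 0.056. Without both arrays numbered 1, the difference was 0.82.

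Txndc11 encodes a membrane-bound thioredoxin-like protein first described as a partner of the dual oxidases. It stood at 6.69, 6.70 and 6.83 in Ad-GFP and 7.42, 7.67 and 7.66 in Ad-nuclear CREBH. The lowest CREBH array was above the highest control. The difference was 0.84 (SE 0.14, 95% interval 0.52 to 1.16), or 1.79-fold, with an adjusted p of 0.0019. Its partner gene Duox2 fell over the same arrays, from 5.41, 7.53 and 7.35 to 4.12, 3.73 and 3.59 (adjusted p 0.0023), and Duox1 stood at 3.65 and 3.99 on average with an adjusted p of 0.0966.

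Prdx4 encodes the ER peroxiredoxin, which is no isomerase but turns hydrogen peroxide into disulfides that it passes to PDI proteins. It stood at 8.61, 8.85 and 8.88 in Ad-GFP and at 9.24, 9.27 and 9.27 in Ad-nuclear CREBH. The CREBH arrays were nearly equal, while the first control array was lower than the others. The difference was 0.48 (SE 0.12, 95% interval 0.21 to 0.75), or 1.40-fold, with an adjusted p of 0.012. Without Ad-nuclear CREBH replicate 2 or replicate 3 the difference stayed at 0.48, while the adjusted p was 0.0543 and 0.0542.

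Tmx1 encodes a transmembrane isomerase, and Erp44 a protein that retrieves clients and the Ero1 oxidases from the early Golgi. Tmx1 stood at 9.67, 9.68 and 9.65 in Ad-GFP and at 9.70, 9.71 and 9.69 in Ad-nuclear CREBH. Although these arrays did not overlap, the difference was 0.03 (SE 0.09, 95% interval -0.18 to 0.24) with an adjusted p of 0.828. The SE in limma draws on the spread of genes of like level and is larger here than the spread of the arrays themselves, with SDs of 0.02 and 0.01. Erp44 stood at 9.59, 9.53 and 9.44 against 9.50, 9.50 and 9.63, which overlap, and differed by 0.02 (SE 0.10, 95% interval -0.22 to 0.26, adjusted p 0.900). Both intervals leave out the change of P4hb and that of Pdia6.

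**Figure D2:**
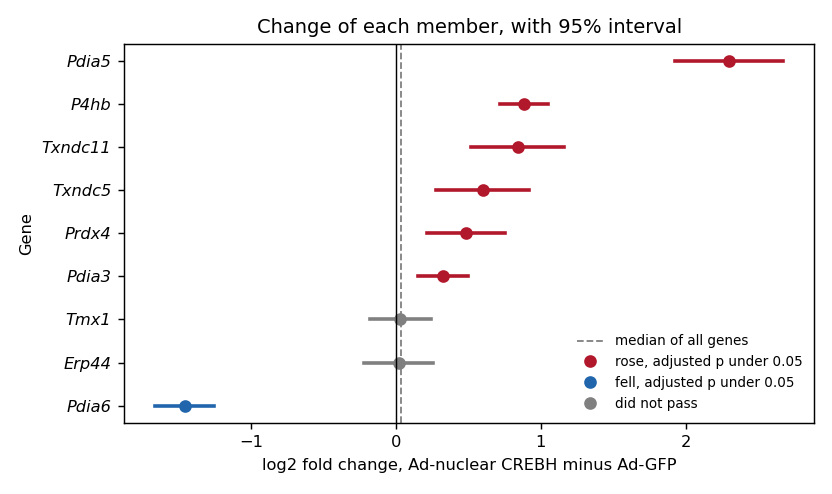
Log2 fold change of each measured member (Ad-nuclear CREBH minus Ad-GFP, 3 arrays each), with its 95% interval from limma as a bar; the dashed line is the median of all 18820 genes at 0.04. Pdia5 at 2.30 stands clear to the right and Pdia6 at -1.46 to the left of the other members.

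In the order of their changes, Pdia5, P4hb, Txndc11, Txndc5, Prdx4, Pdia3, Tmx1, Erp44 and Pdia6 form 8 pairs of neighbours. The intervals of 6 neighbouring pairs overlap, so the order among P4hb to Erp44 is not settled step by step. The intervals of Pdia5 and P4hb do not overlap, nor do those of Erp44 and Pdia6. All 3 CREBH arrays were above all 3 control arrays for 7 members, which held for 26.2% of all genes, and below them for 1 member, which held for 23.1% of all genes. With 3 arrays against 3, an exact two-sided permutation test of a single gene cannot give a p below 0.1.

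The methods of the study selected genes at p under 0.001, a fold change of over 2 either way and an expression value over 300. By these criteria, with the expression value taken as the linear group mean in at least 1 group, Pdia5 was selected among the higher genes and Pdia6 among the lower genes. The same criteria selected 4.91% of all genes (924) as higher and 3.1% (584) as lower. These are fewer genes than the study reports, so the fit and choice of rows used here do not repeat its own selection. The 5 other members that rose did so by less than 2-fold, and Pdia5 is left out where both group means must exceed 300. After centring every array on its own median P4hb reached 1.03, and 3 members met the criteria.

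The 6 members that rose had their lowest CREBH value on Ad-nuclear CREBH replicate 1, the array on which Creb3l3 was lowest among the 3. Pdia6 had its highest CREBH value on the same array. This ordering was common over all genes, where 57.5% of the 3615 genes called higher were lowest on that array, and 38.1% of the 3427 genes called lower were highest on it. For Pdia5 the CREBH arrays lay 2.18, 2.34 and 2.38 above the Ad-GFP mean, and for Creb3l3 1.73, 2.22 and 2.35. For Pdia6 they lay at -1.42, -1.46 and -1.48 relative to that mean. With 3 arrays in a group no relation between Creb3l3 and the members was tested.

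**Figure D3:**
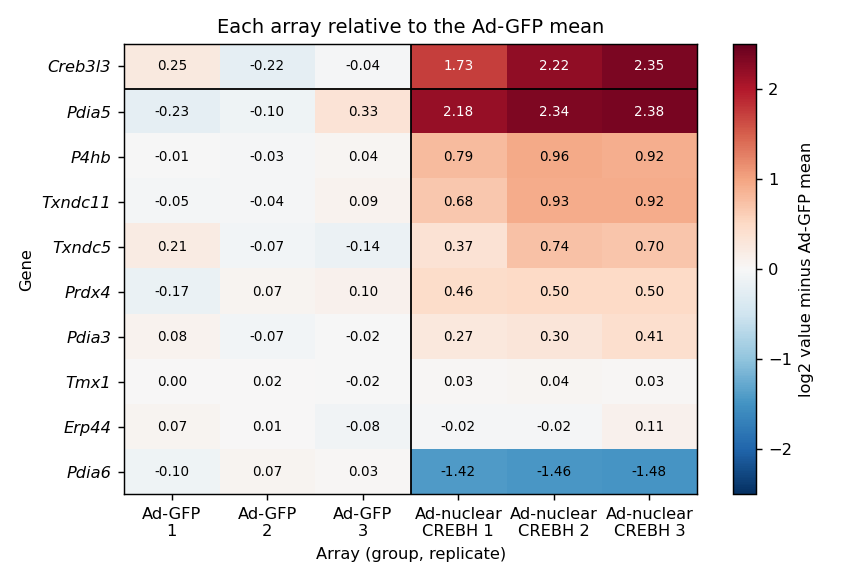
Each cell gives the log2 value of a gene on 1 array minus the gene's mean over the 3 Ad-GFP arrays, with red for higher and blue for lower; Creb3l3 is on top and the 9 members follow in order of change. On Ad-nuclear CREBH replicate 1 the rises are the smallest of the 3 arrays for each of the 6 members that rose, as for Creb3l3 (1.73 against 2.22 and 2.35).

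The other genes of oxidative folding were read from lists for the same arrays and the same fit. Each count of calls below stands beside 19.2% of all genes called higher and 18.2% called lower. Several lists hold mostly bright genes, and calls were more common among the 4741 genes over 300 in a group, where 1861 rose and 1468 fell. Whether a list differs from all genes or from those brighter genes was not tested. Among 15 other PDI-like proteins of the ER, 2 rose, 5 fell and 8 did not pass, with a median log2 fold change of -0.10. Pdia2, an isomerase known from the pancreas, went from 4.73, 3.37 and 5.20 to 8.71, 9.18 and 9.18, a rise of 4.59 (SE 0.42, 24.1-fold, adjusted p 9.9e-05). Pdilt, known from the testis, went from 4.13, 3.44 and 4.25 to 6.50, 6.16 and 6.08 (adjusted p 0.00016). Both genes were dim in the control arrays, below the median gene at 5.25, where a fold change on this scale is least certain. The 4 largest falls were those of Txndc16 (-1.37), the transmembrane members Tmx3 (-1.25) and Tmx2 (-1.09), and the reductase Dnajc10 (-0.70), and the fifth gene that fell, Erp29 (-0.51), was near the threshold with an adjusted p of 0.0469. Tmx1, which did not pass, thus stood beside its relatives Tmx2 and Tmx3, which fell, and Tmx4, which was at 7.25 and 7.32 with an adjusted p of 0.816. Of the genes that did not pass, Selenof stood at 10.45 and 10.74, Txndc12 at 10.01 and 9.91 and Txndc15 at 7.63 and 7.05.

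Among 9 ER oxidases and peroxidases, 3 rose and none fell. Ero1a, the oxidase that recharges PDI, did not pass, at 10.94, 10.36 and 10.00 in Ad-GFP and 10.36, 10.19 and 10.09 in Ad-nuclear CREBH (adjusted p 0.497). Its first control array was the highest of the 6. Its relative Ero1b did not pass either (adjusted p 0.780). Qsox2, a sulfhydryl oxidase of the later secretory pathway, went from 6.71, 7.02 and 7.18 to 9.21, 9.19 and 9.38, a rise of 2.29 (SE 0.15, 4.90-fold, adjusted p 2.9e-05), while its relative Qsox1 stood at 9.96 and 10.06 and did not pass. Vkorc1, the vitamin K epoxide reductase needed for clotting factor carboxylation, rose by 1.54 (2.91-fold, adjusted p 0.00025), and Vkorc1l1 by 0.76 (adjusted p 0.0013).

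The calnexin cycle, in which Pdia3 works, was split. Of 10 genes, 4 rose, 5 fell and 1, the glucosidase gene Ganab (9.38 and 9.56), did not pass. The lectin chaperones themselves fell: Canx from 11.61, 11.71 and 11.61 to 10.89, 10.86 and 10.85 (-0.78, SE 0.07, adjusted p 0.00011), and Calr from 11.87, 12.12 and 12.09 to 11.13, 11.53 and 11.45 (-0.66, SE 0.12, adjusted p 0.0032). The folding sensors Uggt1 (-0.69) and Uggt2 (-0.80) and the peptide-loading protein Tapbp (-0.82) fell as well. The genes that rose were the glucosidase genes Mogs (1.89) and Prkcsh (0.69) and the pair Lman1 (1.74) and Mcfd2 (2.23), which carry clotting factors V and VIII out of the ER. Mcfd2 went from 9.21, 8.79 and 9.23 to 11.19, 11.42 and 11.32, a size like that of Pdia5. Pdia3 and its partners Canx and Calr were thus called in opposite directions, but the small rise of Pdia3 lost its call in 3 of 18 alternatives.

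Among 11 genes for subunits, partners and clients of the member proteins, 2 rose, 1 fell and 8 did not pass. Mttp, the large subunit of the triglyceride transfer protein whose other subunit is P4hb, went from 9.36, 9.89 and 9.92 to 10.74, 10.83 and 10.80, a rise of 1.07 (SE 0.16, 2.09-fold, adjusted p 0.00096). The catalytic prolyl hydroxylase subunits that pair with P4hb were less clear. P4ha1 stood at 9.27, 7.79 and 7.67 against 9.18, 9.14 and 9.06 (adjusted p 0.107). P4ha2, at 8.90 and 9.51, had an adjusted p of 0.0759, and P4ha3, which rose by 0.96 (adjusted p 0.0050), was dim at 3.22 and 4.18. Crtap, which acts on collagen together with prolyl 3-hydroxylase, stood at 8.71 and 8.80 (adjusted p 0.770). For P4ha1 the first control array was as high as the CREBH arrays. Without Ad-GFP replicate 1, 5 genes of this list rose and 2 fell.

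Of the thiol redox proteins outside the ER, more fell than rose. Of 17 cytosolic and mitochondrial genes, 2 rose, 8 fell and 7 did not pass, and the median was -0.49. Glutaredoxin (Glrx) fell by 1.74 on the log2 scale, thioredoxin reductase (Txnrd1) by 1.16, Glrx5 by 1.09 and thioredoxin itself (Txn1) by 1.04, the last from 12.18, 12.16 and 12.20 to 11.34, 10.99 and 11.09 (adjusted p 0.00011). The peroxiredoxins Prdx1 (-0.68) and Prdx3 (-0.75) fell while the ER peroxiredoxin Prdx4 rose, and Prdx2 stood at 10.09 and 10.23 with an adjusted p of 0.627. Txnl1 (9.72 and 9.59) and Txndc9 (9.46 and 9.44) did not pass either. The 2 genes that rose were Txndc17, by 0.80, and nucleoredoxin (Nxn), which went from 5.98, 4.87 and 6.00 to 9.04, 9.35 and 9.41, a rise of 3.65 (SE 0.30, 12.5-fold, adjusted p 6.1e-05).

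**Figure D4:**
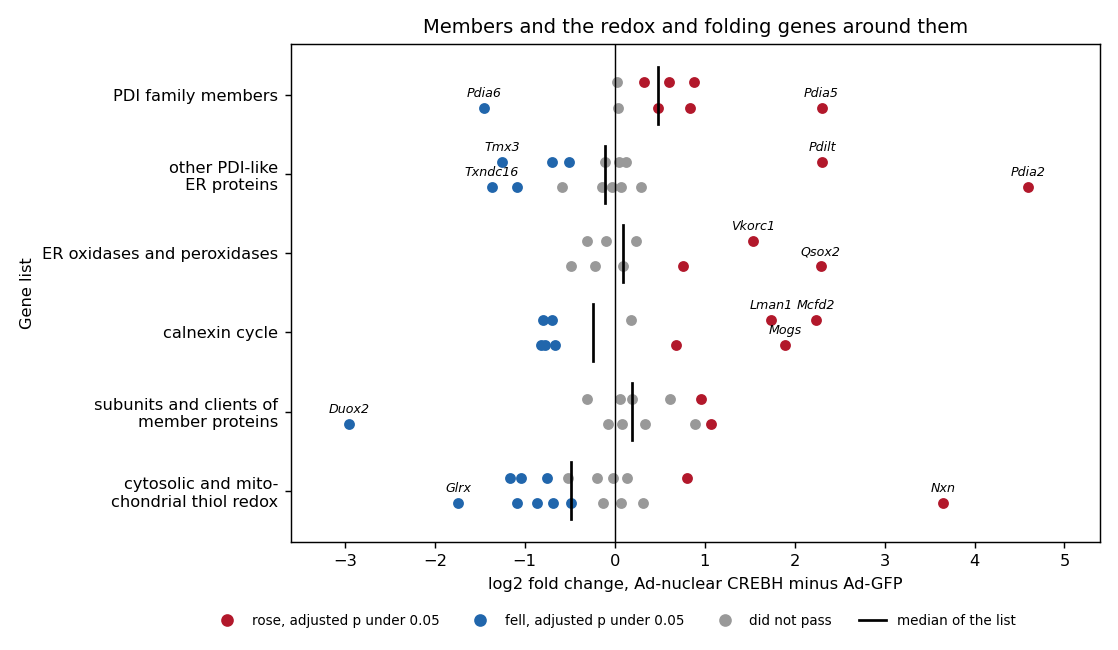
Log2 fold change (Ad-nuclear CREBH minus Ad-GFP) of every measured gene of the family and of 5 related lists, with 1 point per gene, red where it rose, blue where it fell, grey where it did not pass, and a black bar at the list's median. The medians run from 0.48 for the members to -0.49 for the cytosolic and mitochondrial thiol redox genes; genes beyond 1.2 either way are named.

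The array medians were 5.119, 5.268 and 5.302 in Ad-GFP and 5.050, 5.116 and 5.097 in Ad-nuclear CREBH. All 3 CREBH medians thus lay below all 3 control medians, by little in places, and centring the arrays removes this offset. The highest values ran from 13.46 to 13.56. Of 10 hepatocyte markers measured, Alb stood at 13.28 and 13.27 in the 2 groups and Trf at 13.17 and 12.97. Apoa1 rose from 12.21 to 12.95, while Fgb fell from 11.72 to 9.43 (4.90-fold lower), Tat from 9.33 to 7.16 (4.49-fold lower) and Cps1 from 7.65 to 6.44 (2.31-fold lower). The remaining 6, Alb and Trf included, did not pass. The summed linear level of the 10, in which these falls weigh little beside Alb and Trf, was 35493 to 38196 in Ad-GFP and 34638 to 37383 in Ad-nuclear CREBH. Of 12 macrophage markers, Csf1r rose from 4.70 to 5.31 (adjusted p 0.0254), and Cd68, Lyz2 (6.28 to 5.71) and Cd5l (4.67 to 4.04) fell. Cd68 went from 11.70, 11.52 and 11.24 to 11.16, 9.99 and 9.90, so that Ad-nuclear CREBH replicate 1 lay close to the controls. The macrophage sum was 2726 to 3726 against 1257 to 2670, but most of it is Cd68, by far the brightest of the 12. The other 8 macrophage markers did not pass. The defining Kupffer cell markers Clec4f and Vsig4 stood at 3.67 and 3.18 in Ad-GFP and 3.93 and 3.13 in Ad-nuclear CREBH, below the median gene. None of the 10 endothelial markers was called, with Cdh5 at 6.61 and 6.62 and Pecam1 at 5.53 and 5.55. Of 10 stellate cell and fibroblast markers 1 fell, Reln (6.07 and 4.17). The collagen gene Col1a1 stood at 5.25, 4.90 and 4.77 against 5.02, 7.30 and 7.51 (adjusted p 0.0619), and Col1a2 at 4.37, 4.40 and 4.35 against 4.42, 5.76 and 6.02 (adjusted p 0.0635). Both were high on Ad-nuclear CREBH replicates 2 and 3 and near the controls on replicate 1. Of 6 cholangiocyte markers Epcam rose (4.76 and 6.50, adjusted p 0.00025), Krt19 fell (4.49 and 3.43, adjusted p 0.0041), and Sox9 stood at 8.07 and 8.65 (adjusted p 0.278). The part of other cell types in the members' changes was not tested. In these cultures fewer cells of a type and less RNA per cell cannot be told apart.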

How the data were processed

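Total RNA of 6 cultures (3 Ad-GFP, 3 Ad-nuclear CREBH) was hybridised to Affymetrix Mouse Gene 1.1 ST arrays. The deposited table holds log2 expression values that the authors made with RMA (background correction, quantile normalization and probe summary), as the submitters' processing notes name it without a version. The base of the log was taken as 2 from RMA's own scale, and no source used here names the array definition. Arrays have no read depth, and their number (3 per group) limits the precision. Of 35556 rows, 21218 were annotated with 1 symbol, 1881 with several and 12457 with none. The row with the highest mean was kept for each gene (18820 genes). Groups were compared with limma 3.58.1 in R 4.3.3 (lmFit, eBayes with an intensity trend, unpaired), with Benjamini-Hochberg adjustment over all 18820 genes and calls at an adjusted p under 0.05. The script was tested on simulated data. Fold changes are 2 raised to the log2 difference. Figures were drawn with matplotlib 3.10.9.

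The members and the gene lists were chosen with earlier results of these data known. In the related lists, the genes named were up to 4 of the largest rises, up to 4 of the largest falls and up to 3 of the brightest that did not pass, together with genes paired with a member or with another named gene and chosen after their values were seen (Duox1, Tmx4, Calr, P4ha1, Erp29, Prdx1, Prdx3, Col1a2, the called markers, Clec4f and Vsig4). Marker lists were read as summed linear values. Promoter sequences came from RefSeq, GRCm38.p6. Protein sequences were not analysed here. The alternatives were a variance prior with no intensity trend, weights for the arrays, a block for the replicate number, 3 other normalizations, other rules for rows, a filter on dim genes, stricter thresholds and leaving out arrays.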

Additional observations from a re-analysis of the deposited data

How the results depend on the processing

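Over 18 alternatives, Pdia5, P4hb and Pdia6 stayed called in the same direction, and so did Txndc11 in the 17 that tested it. Pdia5 ran from 2.19 to 2.47, P4hb from 0.65 to 1.03 and Pdia6 from -1.61 to -1.31. Txndc5 lost its call in 1 alternative, Pdia3 in 3 and Prdx4 in 4, counting for Prdx4 an adjusted p under 0.01 and for both of the latter a required change of 1.5-fold. Tmx1 and Erp44, never called, ran from -0.16 to 0.17 and from -0.15 to 0.16. The members' median was 0.63 after centring every array on its own median (which moved the median of all genes to 0.18 and the calls to 4814 higher and 2852 lower), 0.34 after quantile normalization and 0.41 among genes over 300 in a group (Txndc11 is then left out); leaving out 1 array at a time gave 0.40 (without Ad-GFP replicate 1) to 0.53 (without Ad-GFP replicate 3). Members meeting the methods' criteria numbered 1 with both group means over 300 and 3 after centring. With array weights, 1 ER oxidase or peroxidase fell, and 5 of the subunits and clients rose and 2 fell; 4 rose after centring. Among genes over 300, 1 of the other PDI-like genes rose and 3 fell, and 1 of the subunits and clients rose and 0 fell. Without both arrays numbered 1, 6 of the latter rose and 2 fell, and without Ad-GFP replicate 1, 5 and 2. The causes were not tested, except that the filter on 300 tested 4741 genes. The replicate numbers gave deviation correlations of 0.178, 0.073 and 0.139, not all over 0.1, and replicate 2 did not correlate best with its own number, so they were not read as pairs. With the replicate number as a block, 6 members rose and 1 fell, and over all genes 3715 rose and 3705 fell against 3615 and 3427 without it.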

Other observations

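The genes that carry the promoter elements searched for in the members can be read on the same arrays, as a description without a test and chosen after the members' values were seen. Of 14749 measured genes with a promoter window, 19.9% rose and 18.7% fell. Among the 19 of them with an ER stress element upstream, 2 rose and 6 fell. The 6 that fell were Acnat2 (-2.16), Derl3 (-1.92), Pdia6, Creld2 (-1.27), Canx and Calr. The 2 that rose were the acetyl-CoA carboxylase gene Acacb (2.96) and the co-chaperone gene Dnajc3 (0.65), and the chaperones Hspa5 and Hsp90b1 were at adjusted p of 0.105 and 0.308.

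Among the 116 genes with the UPR element core upstream, 46 (39.7%) rose, the members Txndc5 and Txndc11 included, and 8 (6.90%) fell. The largest rises among the 116 were those of Ypel4 (4.38), Kdelr3 (3.86), Spata18 (3.69), Sult2b1 (3.56) and Pax1 (3.12). The largest falls were those of Aox3 (-3.24), Tnfaip3 (-2.31) and Ro60 (-2.05). In Ad-GFP, Spata18 (mean 4.21), Sult2b1 (3.57) and Pax1 (4.01) were dim, below the median gene at 5.25, where a fold change is least certain. Of the 7 genes with the ER stress element II, 3 rose and 0 fell. Of the 1337 with the TGACGT core 27.9% rose and 19.1% fell, and of the 5613 with CCACG 25.2% rose and 20.9% fell. The elements overlap in letters, so these groups share genes.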
